A study of Rattus norvegicus with 14 samples.

Results

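Most CpG-dense stretches of a mammalian genome are short and stand alone, and a few are grouped into broad clusters. Such clusters were located in the oesophagus of male rats of 8 to 9 weeks, in which DNA methylation had been read by reduced representation bisulfite sequencing, a method that cuts DNA at CCGG sites with MspI and reads the CpGs near the cuts. The chromosomes 1 to 20 were divided into tiles of 1000 bp and windows of 20000 bp, both counted from position 1. A tile was dense if at least 60 distinct CpG cytosines in it, on either strand, were listed in any of 13 libraries, and a member was a dense tile in a window with at least 5 dense tiles. The members numbered 147, or 1.60% of 9193 dense tiles and a small part of 1933118 tiles with a listed cytosine. They lay in 28 windows, which made 25 clusters when adjacent windows were joined, on 13 chromosomes. The rule used where cytosines were listed and no methylation value.

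The libraries came from 3 groups. Non-surgical controls (NSC, 4 libraries) gave oesophagus through its full thickness. The day 1 group (5 libraries) gave host tissue taken with biopsy punches from within 2 mm of the edge of a surgical defect, 1 day after its repair with a bi-layer graft of silk fibroin. The week 1 group gave new tissue that had grown in the grafted area by day 7, with 4 of its 5 samples analysed here. Day 1 and week 1 tissue therefore differed in site as well as in time, and these cannot be told apart. Whether each library is a different animal is not stated in the labels, and p-values here cover only the spread among these libraries, part of which may be technical. All tissue was bulk, in which a change of methylation within cells and a change in the mix of cells cannot be told apart.

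CpG-dense DNA in vertebrates is mostly found at CpG islands, many of which hold promoters and stay unmethylated in normal tissue. Broad groups of islands are known from loci of developmental transcription factors, such as the Hox clusters, where Polycomb proteins bind in cells that keep the genes silent. Exceptions that are methylated in normal tissue include imprinted control regions, methylated on the chromosome from one parent, and some islands inside genes or in repeated DNA.

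Gene annotation of mRatBN7.2, the assembly of the deposited positions, was not used here. RefSeq promoter sequences of the assembly GRCr8 were instead placed on the listed cytosines by the spacing of their CpGs, without converting coordinates. In the 28 windows 26 RefSeq promoters of 22 genes were placed, in 19 windows, and 25 of them overlapped a member. The limits of the match were chosen after the scores had been seen beside the chromosome of each promoter, so that all 26 fell on the chromosome RefSeq gives is no separate check. A measure not used in choosing the limits was the distance between matched starts of different genes. For 10 pairs, 4411 to 27660 bases apart, it differed from the RefSeq distance by at most 2 bases. Of these pairs 9 are combinations of 5 HoxA starts and the other is Prdx5 with Esrra, so the matches in other loci have no such check.

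The genes placed in this way included the developmental regulators Ebf3, Sp9, Skor1, Zfp503, Hoxa3, Hoxa7, Hoxa9 and Hoxa10. Gnas, an imprinted gene for a G protein subunit, lay among them, as did Esrra, a nuclear receptor gene, and Prdx5, which encodes an antioxidant peroxiredoxin. Others were Colgalt1, a collagen glycosyltransferase gene, Atp5f1d, for a subunit of mitochondrial ATP synthase, Kiss1r, for the kisspeptin receptor, Cilp2, Spag6, Ado, Rex1bd and C7h19orf25. The rest were uncharacterised loci, among them LOC120102333, a non-coding RNA gene whose RefSeq span overlaps, on the opposite strand, that of Gata2, a transcription factor gene of blood and endothelial development. In 9 windows no promoter was placed, and these are given by position only.

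The density of CpGs in these clusters can be seen in the 250 bases before 5 of the matched starts, printed 5′ to 3′ along the gene from RefSeq (GRCr8), with CpGs in capitals where a cytosine of the pair was listed in a library. Positions are those of the match in mRatBN7.2. Gnas is shown because its cluster had intermediate methylation, Colgalt1 because it was near 0 and was read in all libraries. Sp9, Hoxa10 and LOC120102333 are shown because their clusters hold tiles that differed between groups.
Gnas, plus strand, chr3:163084764-163085013: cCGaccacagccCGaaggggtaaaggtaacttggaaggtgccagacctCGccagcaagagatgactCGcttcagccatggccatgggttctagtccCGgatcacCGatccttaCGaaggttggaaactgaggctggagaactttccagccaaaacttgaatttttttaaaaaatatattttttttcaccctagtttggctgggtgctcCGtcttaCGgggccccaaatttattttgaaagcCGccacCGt
Colgalt1, plus strand, chr16:18319546-18319795: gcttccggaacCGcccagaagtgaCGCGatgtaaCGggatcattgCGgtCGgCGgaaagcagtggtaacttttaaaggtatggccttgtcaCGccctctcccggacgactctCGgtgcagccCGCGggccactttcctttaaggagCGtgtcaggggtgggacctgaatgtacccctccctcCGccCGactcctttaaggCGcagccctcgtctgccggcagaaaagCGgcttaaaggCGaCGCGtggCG
Sp9, plus strand, chr3:58146576-58146825: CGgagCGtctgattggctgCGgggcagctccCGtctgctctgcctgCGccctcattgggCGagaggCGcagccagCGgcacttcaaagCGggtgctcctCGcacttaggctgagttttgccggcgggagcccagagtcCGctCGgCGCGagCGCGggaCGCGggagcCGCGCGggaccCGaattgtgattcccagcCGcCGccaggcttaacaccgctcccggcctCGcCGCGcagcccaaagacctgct
Hoxa10, minus strand, chr4:81335310-81335559: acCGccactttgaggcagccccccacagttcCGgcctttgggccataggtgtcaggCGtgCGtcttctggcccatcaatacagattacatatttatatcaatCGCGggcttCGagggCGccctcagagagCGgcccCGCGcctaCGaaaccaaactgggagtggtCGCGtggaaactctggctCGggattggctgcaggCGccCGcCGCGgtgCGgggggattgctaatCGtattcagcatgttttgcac
LOC120102333, minus strand, chr4:120657616-120657865: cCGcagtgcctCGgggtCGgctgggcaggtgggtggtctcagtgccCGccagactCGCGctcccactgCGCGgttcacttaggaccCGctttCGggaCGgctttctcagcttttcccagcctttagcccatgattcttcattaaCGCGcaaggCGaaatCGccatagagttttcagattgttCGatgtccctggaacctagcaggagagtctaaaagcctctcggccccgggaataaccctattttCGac
The Gnas stretch holds 11 CpGs, all of them listed, and that of Sp9 holds 31, of which 27 were listed. Over all 33469 RefSeq promoters the median number of CpGs in these 250 bases was 5. The printed stretches overlap dense tiles, and only the 13885 promoters with at least 20 CpG cytosines could be matched. Counts above that median therefore follow from the choice of stretches. Across the 300 bases of the Colgalt1 promoter the methylation was 0.330% ± 0.479 (SD of 4 libraries) in NSC, 0.170% ± 0.381 (SD of 5 libraries) at day 1 and 0.155% ± 0.310 (SD of 4 libraries) at week 1. The Gnas promoter read 49.4% ± 23.0 (SD of 4 libraries) in NSC, 72.0% ± 19.8 (SD of 4 libraries) at day 1 and 63.9% ± 20.2 (SD of 2 libraries) at week 1, with spreads that overlap. The Sp9 promoter stayed low, at 3.07% ± 2.38 (SD of 4 libraries), 4.29% ± 3.48 (SD of 5 libraries) and 4.44% ± 4.89 (SD of 4 libraries). Of 25 matched promoters with an NSC value, 23 were under 10% there, between 0% and 8.59%, the highest being Hoxa10. The exceptions were Gnas and LOC134482991 on chromosome 18, at 96.3% ± 1.53 (SD of 4 libraries).

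Methylation could be measured in 110 of the 147 members, those with at least 3 cytosines present in 3 or more libraries of each group. The other 37 had too few such cytosines and have no value. The value of a tile in a library is its methylated reads divided by all its reads, summed over those cytosines, and a library with fewer than 10 such reads has no value there. Summed over the listed cytosines of chromosomes 1 to 20, read counts ran from 9007170 (day 1 replicate 2) to 47558937 (NSC replicate 1). Day 1 replicate 2 gave a value in 28 of the 110 measured members, against 89 to 110 in the other libraries. Differences between groups at day 1 thus rest mostly on 4 of its 5 libraries.

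Measured members were mostly low in unoperated tissue. Their median NSC methylation was 5.27% (quartiles 0.699% and 28.3%), with 70 tiles under 10%, 13 at 10 to 30%, 16 at 30 to 70% and 11 at 70% or more. Isolated dense tiles, those in windows with fewer than 5 dense tiles, had a median of 0.480% over 6143 measured tiles, and 85.5% of them were under 10%, against 63.6% of the members. Tiles in the same 28 windows that were not dense had a median of 39.96% over 67 tiles, and measured tiles that were not dense had one of 77.0% over 58296. Of the 1264 cytosines measured in members, 871 were under 10% in NSC, 298 at 10 to 90% and 95 at 90% or more.

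**Figure D1:**
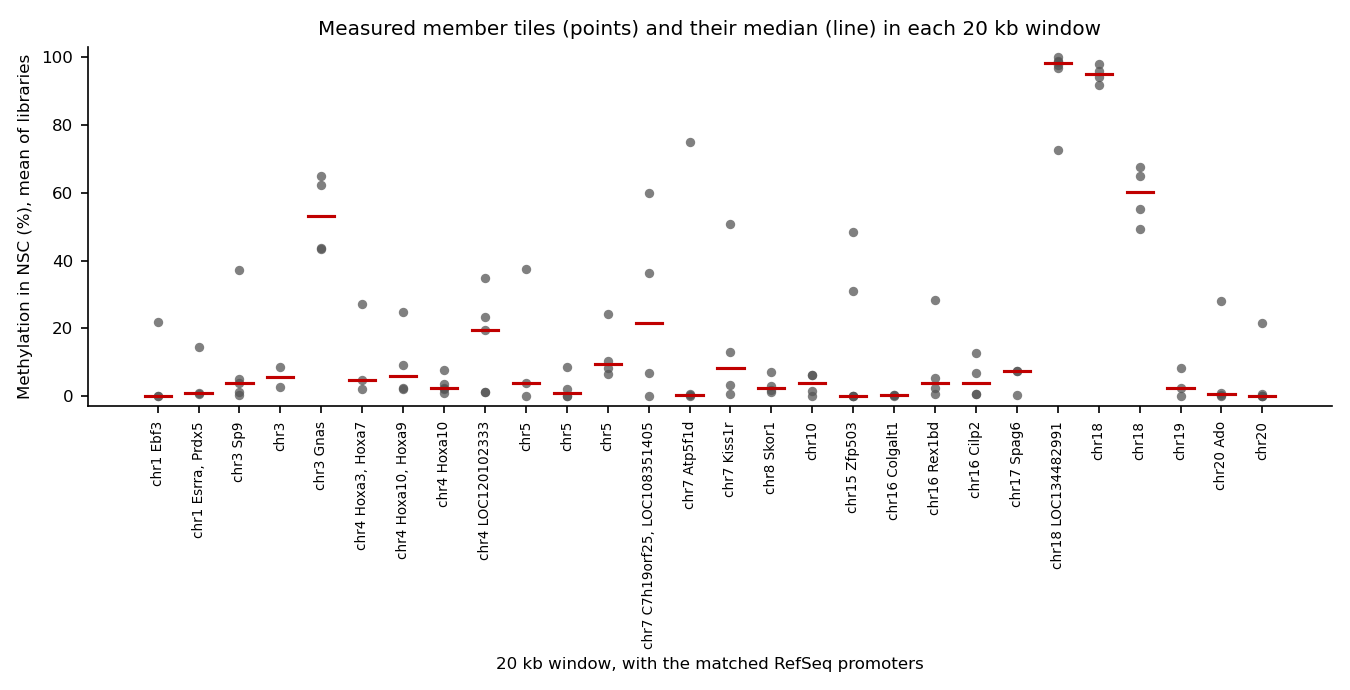
Methylation of measured member tiles in NSC. Each column on the x axis is a 20 kb window, in order of chromosome and position, with the matched RefSeq promoters in its label; the y axis gives methylation in percent, a point is a tile (mean of the NSC libraries) and a red line the median of the window. Most windows have their median near 0 with single higher tiles, the Gnas window and a window on chromosome 18 lie near the middle, and the 2 windows at the start of chromosome 18 lie near 100%.

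Tiles surrounded by other dense tiles had the lowest median. Members with a dense tile on both sides had a median NSC methylation of 0.751% (17 tiles), those with 1 dense neighbour 5.51% (57 tiles) and those with none 8.46% (36 tiles). The tiles with both neighbours were not all low: 2 in the Gnas window were at 62.2% and 43.3%, and chr18:163001-164000 was at 94.3%. Only 3 of the 17 had 10 reads in every library, none of them among these high tiles. A test over libraries was run on those 3 low tiles against 17 other members, but it describes those tiles alone, so its p is not used for the order of the medians. The number of dense tiles in a window showed no such order. Members of windows with 5, 6 and 7 dense tiles had medians of 5.19% (82 tiles), 5.04% (23 tiles) and 19.6% (5 tiles of a single window). Around the limit of 60 cytosines, 22 members with 60 to 64 listed cytosines had a median of 3.55%, and 8 tiles of the same windows with 55 to 59 had one of 41.6%. The 214 measured dense tiles of windows with 4 dense tiles had a median of 1.27%.

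Among the clusters with the most dense tiles, several were low as sums over their dense tiles. The Skor1 window on chromosome 8, with 6 dense tiles, was at 3.83% ± 0.837 (SD of 4 libraries) in NSC, and a window on chromosome 5 at 152080001, also with 6, was at 1.91% ± 1.93 (SD of 4 libraries). No measured tile of these windows was above 8.49% in NSC. Skor1 encodes a transcriptional corepressor of the nervous system. The Cilp2, Ado and Ebf3 windows were at 4.34% ± 1.32, 2.42% ± 1.37 and 4.54% ± 3.06 (SD of 4 libraries each), and a window on chromosome 20 at 45760001 was at 2.27% ± 2.13 (SD of 4 libraries). Single tiles inside such clusters could still be higher, up to 28.1% in the Ado window, 21.8% in the Ebf3 window, 21.7% in that on chromosome 20 at 45760001 and 12.7% in the Cilp2 window. In the cluster of Zfp503, a zinc finger gene, the tile at chr15:2317001-2318000 was at 48.6% ± 14.9 (SD of 4 libraries), while the window summed over its dense tiles was at 9.56% ± 3.41 (SD of 4 libraries). A window on chromosome 5 at 124800001, with no matched promoter, was at 17.4% ± 2.94 (SD of 4 libraries), with tiles from 0% to 37.6%, and was not called. At day 1 the Skor1 window was at 11.7% ± 7.43 (SD of 5 libraries) and was not called (edgeR adjusted p = 0.300). Day 1 replicate 2 read 24% over the window, from 50 reads that all lay in the tile at 63610001. The other day 1 libraries read 5.61 to 11.9%. The tile at 63610001 was at 7.03% ± 2.35 (SD of 4 libraries) in NSC and 16.6% ± 5.16 (SD of 5 libraries) at day 1. That tile had an edgeR adjusted p of 0.0430 but a difference under 10 points, and its groups overlapped.

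Chromosome 18 stood apart. It holds 16 members, of which 14 were measured, and all of these were at 49.2% or more in NSC, with a median of 95.1%. The 96 measured members on other chromosomes had a median of 2.90%, and a single one of them was at 70% or more.

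The high values of chromosome 18 came from a cluster of adjacent windows near its start, at 140001 to 180000. The window at 140001, with 6 dense tiles, averaged 96.4% over the NSC libraries (SD 0.933, n = 4), 96.6% over those of day 1 (SD 2.11, n = 5) and 96.3% over those of week 1 (SD 2.596, n = 4). The next window averaged 95.2% (SD 1.88, n = 4), 97.5% (SD 1.499, n = 5) and 96.8% (SD 0.718, n = 4) in the same order. No library of either window lay under 92.7%. The promoter of LOC134482991, an uncharacterised locus, was placed in the first of them. In the tile with the highest NSC level among those with 10 reads in every library, at 159001, the 13 libraries ran from 95.2% to 100%, and in the tile at 162001, next by that level, from 92.2% to 100%.

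Another window on chromosome 18, at 29560001 to 29580000, was at intermediate methylation in every library, from 41.0% to 60.3%. Its NSC mean was 53.5% ± 4.78 (SD of 4 libraries), the day 1 mean 47.4% ± 7.37 (SD of 5 libraries) and the week 1 mean 44.5% ± 3.05 (SD of 4 libraries). Its tile at 29565001 was at 64.9% ± 4.64 (SD of 4 libraries) in NSC, 58.7% ± 9.54 (SD of 5 libraries) at day 1 and 64.1% ± 7.76 (SD of 4 libraries) at week 1. The tile at 29575001, measured at 48 cytosines, read 50, 45.6, 42.8 and 58.4% in NSC, 39.9, 56.2, 40.2, 34.2 and 33.6% at day 1 and 31.4, 34.8, 43.1 and 38.96% at week 1. Most day 1 and week 1 libraries were below the NSC libraries, but the groups overlapped and neither difference passed (edgeR adjusted p = 0.350 and 0.278).

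The Gnas window on chromosome 3, at 163080001 to 163100000, was the other cluster of intermediate methylation. Its NSC libraries read 48.6, 45.6, 51.1 and 56.3%, 4 of the day 1 libraries 59.3, 70.2, 44.6 and 55.9%, and the week 1 libraries 25.9, 53.1, 44.9 and 67.1%. The controls were close together and the other groups spread on both sides of them. Its 4 measured tiles had NSC means from 43.3% to 64.9%, and their SDs in NSC ran from 16.1 to 31.6 points. The window did not pass in any comparison, with adjusted p-values of 0.983 or more (edgeR).

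The first comparison set tissue at the wound margin on day 1 against unoperated oesophagus. A call required 2 things, an edgeR quasi-likelihood p below 0.05 after Benjamini-Hochberg adjustment over the 64549 measured tiles, and group means at least 10 points apart. Among the 110 measured members 9 were called (8.18%), against 9.03% of all measured tiles, so their share was near the background. Of these 5 were higher at day 1 (background 7.16%) and 4 lower (background 1.86%). A tile under 10% in NSC cannot be called lower in either comparison with NSC. Such tiles made up 63.6% of the measured members and 12.6% of the measured tiles that were not dense. Groups did not overlap in 14 members (12.7%), against 19.7% of all measured tiles. The median difference over the members was 0 points, and that over all measured tiles was 3.37 points. Of the 6143 isolated dense tiles 2.33% were called, with a median difference of 0.0560 points. Limma on the percent values also called 9 members. The count depends on centring each library on its median tile, the medians of day 1 being 7.27 points above those of NSC on average. Limma then called 38 members (34.5%), 3 higher and 35 lower, 26 of the latter under 10% in NSC. Centring subtracts the same number of points from every tile of a library. Tiles near 0% in both groups are thereby moved to the lower side, so a call of such a tile is no measured fall in it. Over all measured tiles centring called 12485 (19.3%), 2976 higher and 9509 lower, so calls rose and turned to the lower side there too. All 9 tiles kept their direction under each alternative that gave them a value. With at least 10 reads per cytosine only the tile at chr4:81321001 had one, and with cytosines present in all 13 libraries none had.

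Week 1 compared new tissue of the graft area with the same NSC libraries. Here 5 members were called (4.55%), against 4.79% of all measured tiles, 3 higher (background 3.50%) and 2 lower (background 1.29%), and 79 of 6143 isolated dense tiles (1.29%). After centring, limma called 7 members (6.36%), 2 higher and 5 lower, near the 7.1% of all measured tiles. Between week 1 and day 1, no member was called of 110, and none of the 64549 tiles (background 0%, edgeR). At an unadjusted p below 0.05 there were 9 members (8.18%), against 6.20% of all tiles, and limma called 0 members with and without centring. By adjusted p alone, without the limit of 10 points, 11 members passed at day 1 (10%, against 9.97% of all measured tiles) and 6 at week 1 (5.45%, against 5.17%). Both comparisons with NSC share the control libraries, and the called tiles are described below with their values at both times.

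**Figure D2:**
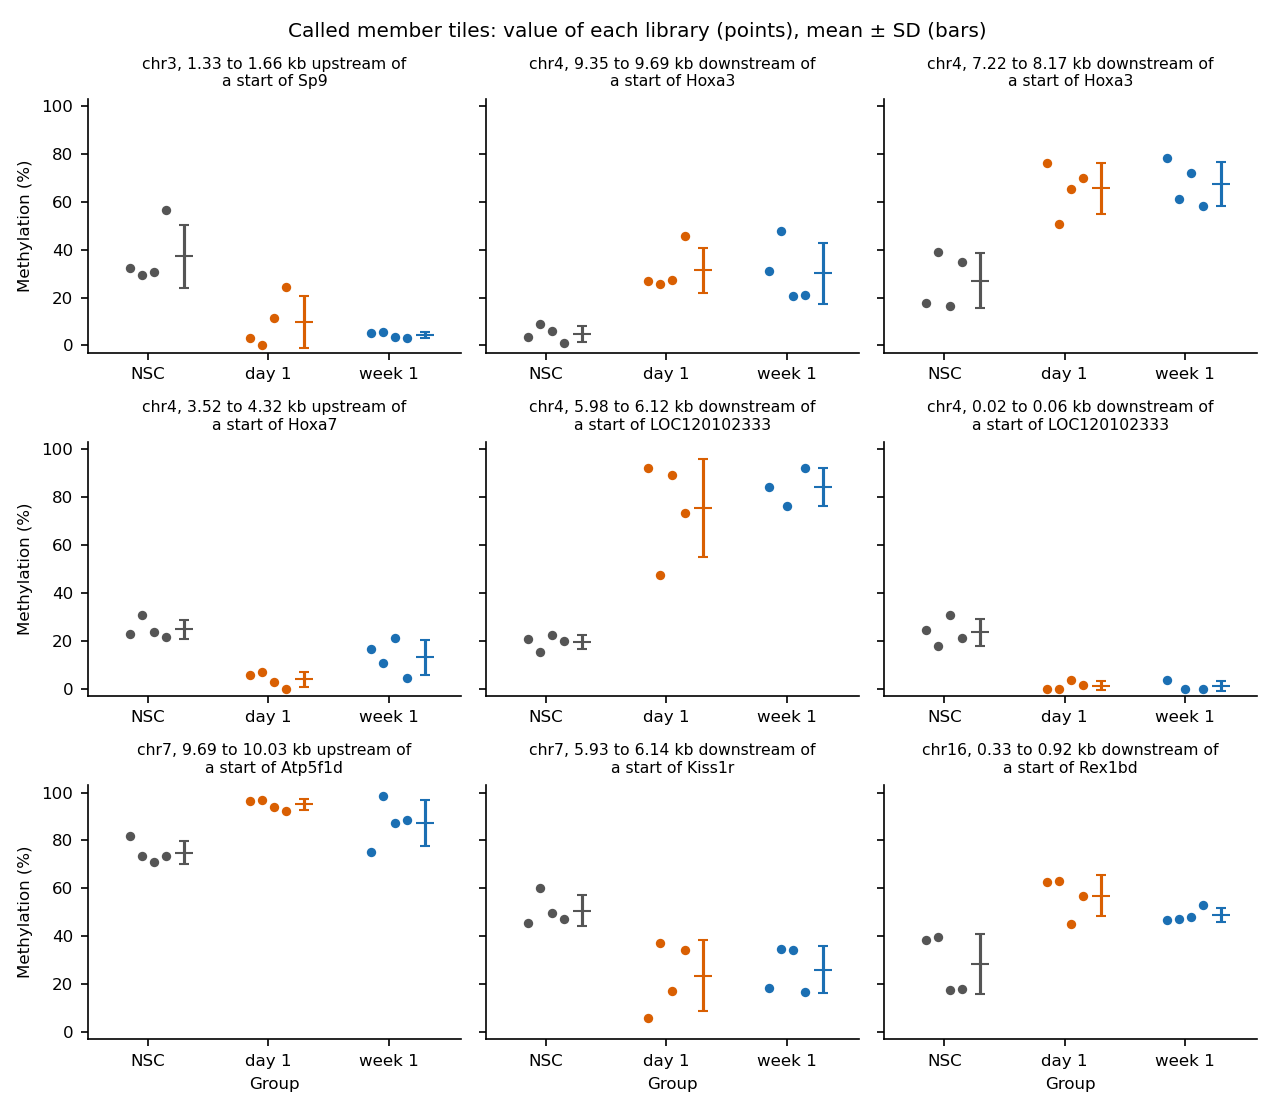
Methylation of the 9 called members in each library. The x axis gives the group and the y axis methylation in percent; points are libraries with at least 10 reads in the tile, bars the mean and SD, and titles give the distance of the measured cytosines from the nearest matched RefSeq start. At day 1 no library of the 9 tiles overlaps the NSC libraries, and the largest rise is in the tile 5.98 to 6.12 kb downstream of LOC120102333. The tiles were called on these same libraries, so this separation is no separate support.

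The largest difference was in the window with the most dense tiles, 7 at chr4:120640001-120660000, next to LOC120102333. In its tile at 120651001 to 120652000 the NSC libraries read 20.8, 15.4, 22.4 and 19.8%, the day 1 libraries with a value 92.0, 47.6, 89.2 and 73.2%, and the week 1 libraries 84.2, 76.4 and 92.2%. Every value after surgery lay above every control. The libraries with a value had 21 to 217 reads summed over the cytosines, the fewest in day 1 replicate 2, which read 47.6%. A single cytosine had 60 to 71 reads over all NSC libraries together, 26 to 40 over those of day 1 and 24 to 32 over those of week 1. The means rose from 19.6% ± 2.99 (SD of 4 libraries) to 75.5% ± 20.3 (SD of 4 libraries) at day 1 and 84.2% ± 7.90 (SD of 3 libraries) at week 1. The log2 odds ratios against NSC were 4.12 ± 0.69 (SE) at day 1 and 4.62 ± 0.74 (SE) at week 1, with edgeR adjusted p-values of 0.000459 and 0.000812. All 11 measured cytosines, within 140 bases from 120651494 to 120651633, were higher at both times. Several of these cytosines had the same count of 70 NSC reads, so they may lie on the same reads. In this and the other called tiles the call was made on the sum of the cytosines, so their agreement is no separate support. The call was also made on these same libraries, so groups that do not overlap are no separate support either. Each of the 11 cytosines was between 5.59% and 36.3% in NSC and between 53.3% and 97.0% at day 1.

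In the same window, 6 kb away, a tile moved the opposite way. The tile at 120657001 to 120658000 read 24.6, 17.6, 30.6 and 21.1% in NSC, 0, 0, 3.75 and 1.56% at day 1 and 3.45, 0 and 0% at week 1. The groups after surgery lay wholly below the controls. The means fell from 23.5% ± 5.53 (SD of 4 libraries) to 1.33% ± 1.77 (SD of 4 libraries) and 1.15% ± 1.99 (SD of 3 libraries), with log2 odds ratios of -4.17 ± 0.88 (SE) and -4.63 ± 1.13 (SE) and edgeR adjusted p-values of 0.00363 and 0.0160. Each 0 rests on few reads: over the called tiles a library at 0 allows a level of up to 4.62 to 30% (3 counts of its reads, counting error only). Its 5 measured cytosines lie within 44 bases, from 120657554 to 120657597, just inside the transcribed side of the LOC120102333 start whose upstream sequence is printed above. The week 1 call of the tile was lost without week 1 replicate 2 (adjusted p = 0.0642, edgeR) and without week 1 replicate 4 (adjusted p = 0.100, edgeR). Between these tiles, the one at 120654001 was at 1.12% ± 1.41 (SD of 4 libraries) in NSC and the one at 120655001 at 35.01% ± 8.55 (SD of 4 libraries), and neither was called. Summed over its dense tiles the window was at 15.04% ± 2.61 (SD of 4 libraries) in NSC, 17.4% ± 13.9 (SD of 5 libraries) at day 1 and 27.0% ± 15.5 (SD of 4 libraries) at week 1, and was not called. These sums do not cover the same tiles in every library. Day 1 replicate 3, at 0% over the window, had no reads in the tile at 120651001.

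The HoxA cluster, whose genes encode homeodomain factors that set position along the body axis, made the longest run, 3 adjacent windows at chr4:81300001-81360000 with 16 dense tiles, 12 of them measured. In unoperated tissue 10 of these 12 were under 10% and 2 at 10 to 30%. The 2 tiles that rose lie at one end of the run, on the downstream side of the matched Hoxa3 start, where Hoxa6 and Hoxa5 come next in the gene order of RefSeq.

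**Figure D3:**
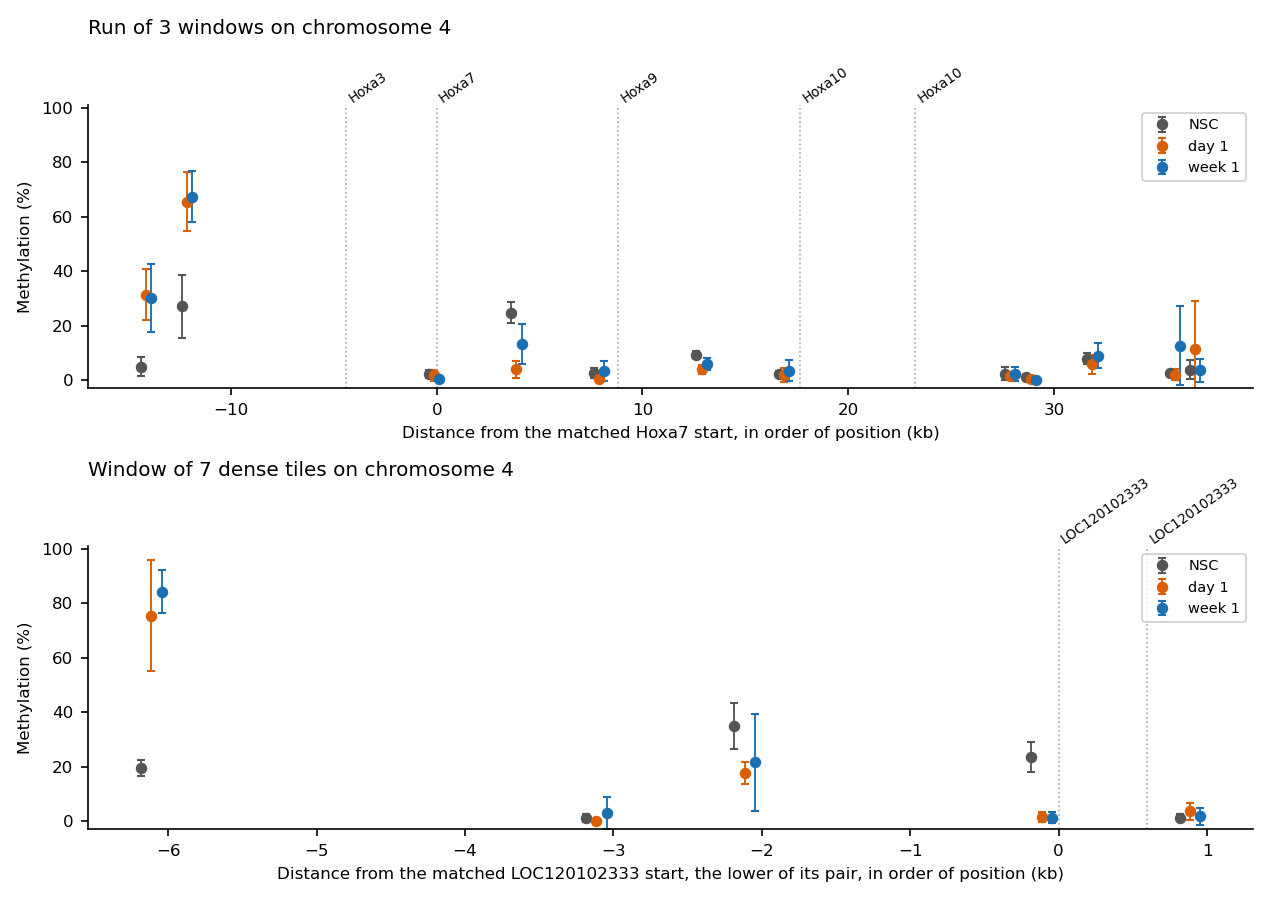
Methylation along the HoxA run (upper panel) and along the window beside LOC120102333 (lower panel). The x axis is the distance in kb of a tile's centre from a matched RefSeq start in order of position, dotted lines mark matched starts, and the y axis gives methylation in percent; points are group means of measured member tiles, drawn side by side, and bars the SD over libraries. In the upper panel, tiles left of Hoxa3 are higher after surgery and the tile between Hoxa7 and Hoxa9 is lower; in the lower panel, the tile at the left is higher and the tile at the LOC120102333 start is lower.

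The first of these HoxA tiles, at 81303001 to 81304000, read 3.45, 8.96, 5.98 and 1.06% in NSC. The 4 day 1 libraries with a value read 27.1, 25.6, 27.1 and 45.6%, and those of week 1 read 31.1, 47.6, 20.6 and 21.1%. The controls were thus all below 10% and the others all above 20%. The mean rose from 4.86% ± 3.39 (SD of 4 libraries) to 31.4% ± 9.49 (SD of 4 libraries) and 30.1% ± 12.6 (SD of 4 libraries), with edgeR adjusted p-values of 0.00404 and 0.0104. All 10 measured cytosines were higher at both times, and the 4 at 81303533 to 81303559 were higher at day 1 than the other 6. After centring it kept its direction and lost its call at both times (limma adjusted p = 0.0689 and 0.0709).

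The second tile, at 81305001 to 81306000, read 17.7, 38.96, 16.7 and 35.1% in NSC, 76.3, 50.9, 65.2 and 70% at day 1 and 78.3, 61.1, 72.0 and 58.3% at week 1. Both later groups were wholly above the controls. Its mean rose from 27.1% ± 11.6 (SD of 4 libraries) to 65.6% ± 10.8 (SD of 4 libraries) and 67.4% ± 9.35 (SD of 4 libraries), with edgeR adjusted p-values of 0.0107 and 0.0152, and all 6 of its cytosines were higher. With each cytosine thinned to 5 reads the call was lost at both times (edgeR adjusted p = 0.0781 and 0.219). It was also lost without NSC replicate 1 (edgeR adjusted p = 0.0521 at day 1 and 0.0667 at week 1) and, at week 1, without NSC replicate 3 (0.0581) or week 1 replicate 1 (0.0556).

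Another HoxA tile fell. It lies at 81321001 to 81322000, 3.52 to 4.32 kb upstream of the matched Hoxa7 start and before that of Hoxa9. It read 23.0, 30.7, 23.8 and 21.7% in NSC, 5.74, 7.14, 2.70 and 0% at day 1 and 16.5, 10.9, 21.2 and 4.29% at week 1. The mean was 24.8% ± 4.03 (SD of 4 libraries) in NSC and 3.90% ± 3.19 (SD of 4 libraries) at day 1, which passed with an edgeR adjusted p of 0.00427 and a log2 odds ratio of -2.94 ± 0.65 (SE). At week 1 it was 13.2% ± 7.29 (SD of 4 libraries), between the other groups, and did not pass (edgeR adjusted p = 0.265). The week 1 and day 1 libraries overlapped. The remaining 9 measured HoxA tiles were not called. One of them, at 81330001 and measured at 19 cytosines, was at 9.24% ± 1.33 (SD of 4 libraries) in NSC and 4.00% ± 1.66 (SD of 5 libraries) at day 1, with an edgeR adjusted p of 0.0257 but a difference under 10 points. The promoter matched to the first start of Hoxa10 was at 8.59% ± 3.59 (SD of 3 libraries) in NSC, 1.89% ± 2.15 (SD of 3 libraries) at day 1 and 2.02% ± 1.02 (SD of 2 libraries) at week 1, over few libraries and without a test.

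Sp9 encodes a zinc finger factor of limb and forebrain development. In its window, at chr3:58140001-58160000, the tile 1.33 to 1.66 kb upstream of the matched start fell. The tile, 58145001 to 58146000, read 32.3, 29.3, 30.6 and 56.7% in NSC, 3.16, 0, 11.5 and 24.3% at day 1 and 5.00, 5.56, 3.33 and 3.16% at week 1. The controls were all above the other libraries, day 1 replicate 5 being the nearest to them. The mean went from 37.2% ± 13.04 (SD of 4 libraries) to 9.76% ± 10.9 (SD of 4 libraries) and 4.26% ± 1.20 (SD of 4 libraries), with edgeR adjusted p-values of 0.0312 and 0.00940, over 4 cytosines that were all lower. The day 1 call was lost when any of 6 libraries was left out, NSC replicates 1, 3 and 4 and day 1 replicates 1, 3 and 4 (edgeR adjusted p of 0.0515 to 0.156). The week 1 call was lost without week 1 replicate 4 (0.0637), and thinning to 5 reads per cytosine lost both (edgeR adjusted p = 0.0949 and 0.210). The other 4 measured tiles of this window, nearer the gene, were between 0.301% and 5.04% in NSC.

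Chromosome 7 held 2 tiles called at day 1 and not past the threshold at week 1, and the difference between these times was not called for either. The tile at 9573001 to 9574000, 9.69 to 10.03 kb upstream of the matched start of Atp5f1d, was the single member off chromosome 18 at 70% or more in NSC. It read 81.9, 73.3, 70.9 and 73.3% in NSC, 96.6, 96.9, 94.1 and 92.3% at day 1 and 75, 98.6, 87.1 and 88.5% at week 1. The mean rose from 74.9% ± 4.82 (SD of 4 libraries) to 95% ± 2.17 (SD of 4 libraries) at day 1 (edgeR adjusted p = 0.00749), with all 15 cytosines higher, and was 87.3% ± 9.69 (SD of 4 libraries) at week 1 (edgeR adjusted p = 0.222), where it overlapped NSC. After centring, the day 1 difference was 10.1 points and the call was lost (limma adjusted p = 0.100). The other 3 measured tiles of that window were between 0.229% and 0.567% in NSC.

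The tile at chr7:9782001-9783000, 5.93 to 6.14 kb downstream of the matched start of Kiss1r, fell from 50.7% ± 6.58 (SD of 4 libraries) to 23.5% ± 14.8 (SD of 4 libraries) at day 1 (edgeR adjusted p = 0.0480). At week 1 it was 25.9% ± 9.84 (SD of 4 libraries), which did not pass (edgeR adjusted p = 0.121). It read 45.5, 60.2, 49.7 and 47.3% in NSC, 5.65, 37.0, 17.1 and 34.2% at day 1 and 18.4, 34.6, 34.2 and 16.5% at week 1, so no library after surgery reached the controls. The tile had 0 to 279 reads per library, summed over its 4 cytosines. Its call was lost without any NSC replicate, without day 1 replicates 1 or 4 and without week 1 replicates 1 or 4 (edgeR adjusted p of 0.05004 to 0.187), and when only the groups compared were fitted (0.0507). Thinning to 5 reads per cytosine gave an adjusted p of 0.420 (edgeR), and 1 of its 4 cytosines was higher at day 1.

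At chr16:18922001-18923000 a tile with cytosines 0.327 to 0.923 kb downstream of the matched start of Rex1bd was called higher, and here the cytosines that carried reads also differed between groups. It read 38.5, 39.6, 17.4 and 17.8% in NSC, 62.8, 63.2, 45.2 and 56.7% at day 1 and 46.7, 47.3, 47.9 and 53.0% at week 1. The means were 28.3% ± 12.4 (SD of 4 libraries), 57.0% ± 8.40 (SD of 4 libraries) and 48.7% ± 2.89 (SD of 4 libraries), with edgeR adjusted p-values of 0.0307 and 0.154. Of its 13 cytosines, 7 were at 50% or more in NSC. These 7 took 34.8% of the tile's reads in NSC, 55.4% at day 1 and 54.5% at week 1. With each cytosine counted once, the differences from NSC were 8.42 and 3.89 points, against 28.7 and 20.4 points by reads, and 7 cytosines were higher and 5 lower at day 1. Thinning to 5 reads per cytosine lost the day 1 call (edgeR adjusted p = 0.567), as did leaving out NSC replicates 3 or 4 or day 1 replicates 1, 3 or 5 (0.0524 to 0.109). In the other 8 called tiles the day 1 difference by cytosine was within 6.58 points of that by reads, and in 7 of them every measured cytosine moved with the tile or was equal. The tiles were called on these same cytosines.

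No 20 kb window of the members passed, and clusters of joined windows were not tested as wholes. The same edgeR test on counts summed over the measured dense tiles of each 20 kb window called 0 of 28 member windows in each comparison, against 0.556% of 5218 windows with a measured dense tile at day 1, 0.192% at week 1 and 0.0192% between week 1 and day 1. At an unadjusted p below 0.05 there were 5 member windows at day 1 (17.9%, against 11.4% of all) and 2 at week 1 (7.14%, against 10.4%), and between week 1 and day 1 there were 0 (against 4.14%). Limma on percent called 0, and limma after centring called 1 at day 1. A library without reads in a tile entered the sum of its window through the other tiles only. The window with the 2 HoxA tiles that rose had the largest day 1 difference, from 9.27% ± 2.58 (SD of 4 libraries) to 29.2% ± 5.95 (SD of 4 libraries), with an edgeR adjusted p of 0.253. The adjacent HoxA window, at 81320001 to 81340000, went from 9.63% ± 1.26 (SD of 4 libraries) to 3.59% ± 1.67 (SD of 5 libraries), with an edgeR adjusted p of 0.155.

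The mean over the 20 members with at least 10 reads in every library did not pass a test between groups either. It was 22.3% ± 1.46 (SD of 4 libraries) in NSC, 21.8% ± 1.28 (SD of 5 libraries) at day 1 and 22.6% ± 1.26 (SD of 4 libraries) at week 1 (exact two-sided permutation tests, adjusted p = 1 for each difference over 14 tests). The smallest unadjusted p possible is 0.00794 with 5 against 4 libraries and 0.0286 with 4 against 4. The shares of these tiles under 10%, between 45% and 65% per library, and at 50% or more, between 15% and 25%, did not pass either (adjusted p of 0.800 or more, exact permutation tests).

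In every library the 20 members were higher than 1575 isolated dense tiles with the same minimum of reads. The difference was 14.8 points on average (SD 1.41, n = 13) and between 12.0 and 17.2 points (exact two-sided sign-flip permutation test, p = 0.000244, the smallest possible, adjusted p = 0.00171 over 14 tests). The libraries share the same tiles, so this p speaks of the libraries and not of other tiles. Of the 20 tiles, 4 lie on chromosome 18. Without them the members averaged 1.56 points above the isolated tiles, higher in 11 of 13 libraries (exact sign-flip permutation test, adjusted p = 0.0308), a choice made after the data were seen. Only the members were restricted in this way, and the isolated tiles stayed the same 1575. The difference between members and isolated tiles did not pass a test between groups (exact permutation tests, adjusted p of 0.800 or more).

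**Figure D4:**
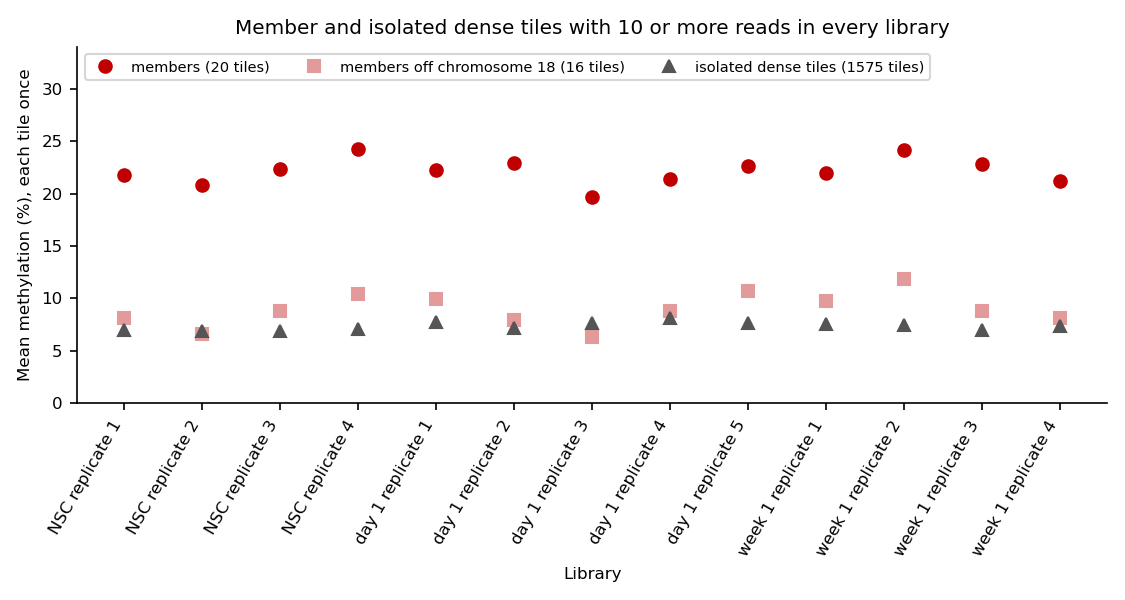
Mean methylation of dense tiles with 10 or more reads in every library. The x axis gives the 13 libraries and the y axis the mean in percent, each tile counted once; circles are the 20 members, squares the 16 of them off chromosome 18 and triangles 1575 isolated dense tiles. Circles lie between 19.7% and 24.3%, while squares lie near the triangles, below them in 2 libraries.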

How the data were processed

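Each library has a deposited table with, per CpG cytosine, the count of methylated reads and the count of all reads, as checked on the values. A further deposited column gives the methylation percent, the ratio of these counts with decimals dropped by the authors, and was not used. Libraries were cut with MspI and fragments over 300 bp removed, per the labels' protocols. Trim Galore, FastQC, Bismark 0.23.0, methylKit 1.14.2 and mRatBN7.2 are named in the submitters' processing notes, with no order or settings, and every listed cytosine had at least 5 reads.

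The members and lists were chosen with earlier results of these data known. Counts were summed per 1 kb tile and tested with edgeR 4.0.16 (quasi-likelihood, 1 effect per library, group effects on methylated counts, dispersion 0.1423) over all 64549 measured tiles with Benjamini-Hochberg adjustment. The SE of a log2 odds ratio is its size divided by the square root of F, an approximation. Means over tiles were compared with exact permutation tests. On simulated data for day 1 against NSC over 64549 tiles, a log2 odds ratio of 2 was called in 32 of 100 tiles, one of 4 in 90 of 100, and no change in 2 of 64349. The simulation assumed 1 spread between libraries for all tiles, set by hand and not fitted to these data. It drew the summed reads as independent, held no shift of the day 1 medians and changed only tiles between 10% and 90% methylation. The 2 of 64349 is thus no rate of false calls for these data. In NSC 70 of the 110 measured members were under 10%, so the rates for changed tiles do not describe most members.

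Named were the 10 windows with most dense tiles, the 5 tiles and 5 windows with the highest NSC level among those read in every library, and up to 5 called tiles per direction and comparison whose groups did not overlap. Tiles, windows and HoxA or matched-gene clusters named beside these were chosen after their values were seen. The planned gene lists needed an annotation of mRatBN7.2, not used here, and were not run. In their place RefSeq promoters with at least 20 CpG cytosines were matched by CpG spacing (score of at least 15, at least 40% of CpG cytosines listed), a step added after the data were seen. Replicate numbers follow the order of the samples and pair nothing. The 22 library pairs within groups differed by more than sampling noise (chi-square per degree of freedom 2.86 to 3.86). Alternatives were other read minimums, thinning, limma 3.58.1 with and without centring, fitting only the groups compared, other density limits and leaving out each library. PCR reads without molecular identifiers are not independent molecules.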

Additional observations from a re-analysis of the deposited data

Results flagged for a closer look

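A single library stood far from the others of its group in 2 of the 34 groups of called tiles examined with Dixon's criterion at 95%, which chance alone exceeds in about 1 group in 20. In the tile upstream of Sp9, at chr3:58145001-58146000, NSC replicate 4 read 56.7% and the other controls 29.3 to 32.3%. Without it the day 1 difference was -21.0 points and no longer passed (edgeR adjusted p = 0.0966). In the HoxA tile at chr4:81303001-81304000, day 1 replicate 5 read 45.6% and the other day 1 libraries 25.6 to 27.1%.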

How the results depend on the processing

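At day 1, 9 members were called in the main analysis, and 6 to 10 when single libraries were left out. The count was 1 of 19 with at least 10 reads per cytosine, 1 of 10 with cytosines present in all 13 libraries and 38 of 110 after centring (34.5%, against 19.3% of all measured tiles centred). With tiles dense from 50 cytosines it was 19 of 395, and with windows of at least 4 or 7 dense tiles it was 14 of 324 and 2 of 5. The last 5 are the tiles of a single window. These density settings change the members and not the 64549 measured tiles, of which 9.03% were called at day 1. At week 1, 5 were called, and 3 to 5 without single libraries, 3 being without week 1 replicate 4. The count was 3 with thinning to 5 reads, 0 with at least 10 reads per cytosine, 0 with cytosines in all 13 libraries, 10 with tiles dense from 50 and 2 with windows of at least 7. For the density settings the share of all measured tiles called at week 1 stays 4.79%. For whole windows at day 1 the count of 0 became 1 after centring and 1 with tiles dense from 50. The stricter read and file limits leave fewer members to test. For these limits, thinning and leaving out libraries, no share over all measured tiles is given, so their counts stand without a background.

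The excess of members over isolated dense tiles reversed, to -4.79 points over 3 members with at least 10 reads per cytosine and to -6.31 points for the single member left with windows of at least 7. Density from 80 cytosines left no members and gives no value. The tile calls at chr4:120651001 (both times), chr4:120657001 (day 1) and chr4:81321001 (day 1) held under all alternatives that gave a value. No paired analysis was possible because the labels give no replicate numbers. Depth limits day 1 replicate 2 most, with values in 28 members.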
